A study of Rattus norvegicus with 16 samples.

Results

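Musashi, Notch and neural progenitor genes were followed in the brain of rats that had received fructose. The set was Msi1, Msi2, Sox2, Nes, Dcx, Neurod1, Sox11, Hes1, Hes5 and Notch1, and 9 of these 10 genes were found in each of the deposited tables, among 16223 gene symbols for hippocampus and 16183 for hypothalamus. The expression of Msi2 was not analysed here. Msi1 was selected on its FPKM in hippocampus, where the fructose values had been seen to lie below the control values, and the other genes were listed around it with results of these samples in view. The hippocampus contrast of the set is therefore a description with no test. The hypothalamus contrast did not choose Msi1, and the genes were tested there.

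The tissue came from male Sprague Dawley rats, and no genetic change is given in the labels. The fructose groups had received fructose for 6 weeks and the control groups no treatment, with 4 fructose and 4 control libraries for hippocampus and 3 fructose and 4 control libraries for hypothalamus. Neither the dose nor the age at sampling is given in the sources used here. Polyadenylated RNA was sequenced and is given as FPKM, a measure of fragments scaled by transcript length and library depth. The labels do not say that each sample is a separate rat, so p-values measure only the spread between these samples.

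Musashi-1, the product of Msi1, is an RNA-binding protein of neural stem and progenitor cells and of astrocytes. It is known for repressing translation of Numb, an inhibitor of Notch signalling. In Notch signalling a ligand on one cell leads to cleavage of the receptor on its neighbour, and the freed receptor fragment enters the nucleus and turns on Hes genes with the DNA-binding protein RBPJ. Hes proteins repress neuronal differentiation genes and keep progenitors undifferentiated. In the adult hippocampus such progenitors line the dentate gyrus, and in the hypothalamus tanycytes and astrocytes around the third ventricle share much of the same gene expression.

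The tissue labels were checked against marker genes. Summed FPKM of 10 genes of hypothalamic neurons, such as Pomc and Hcrt, lay between 3380 and 9003 in hypothalamus and between 7.04 and 31.9 in hippocampus. The 2 libraries numbered 1 stood apart in each table, and each group holds one of them. Across loci their log2 values correlated at r = 0.985 with each other and at 0.84 to 0.896 with the other libraries in hippocampus, and at 0.98 and 0.88 to 0.909 in hypothalamus. The hypothalamus differences of Msi1, Notch1 and Hes5 are given with and without them, and those of genes outside the set only with them. Read counts are not used here, so the depth behind each FPKM value is unknown.

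Msi1 in the hippocampus was lower in every fructose library than in every control library. The fructose libraries held 10.7, 7.92, 10.1 and 9.77 FPKM and the control libraries 15.2, 12.3, 13.4 and 12.6 FPKM, in the order of their replicate numbers. The groups do not overlap, since the highest fructose library lies under the lowest control library. The mean was 9.62 ± 1.20 FPKM in fructose and 13.4 ± 1.31 FPKM in control libraries (SD, n = 4 each), a ratio of 0.720 and a difference of -0.44 ± 0.12 (SE) in log2(FPKM + 1). Without both libraries numbered 1 the difference was -0.429. These values chose the gene and are a description.

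Msi1 in the hypothalamus gave another picture. It held 12.4, 35.5 and 30.6 FPKM in fructose libraries 1 to 3 and 12.3, 23.8, 24.5 and 32.0 FPKM in control libraries 1 to 4. The groups overlap, and the lowest value of each group is its library numbered 1. The difference of fructose minus control was 0.12 ± 0.42 (SE) in log2(FPKM + 1), with a 95% interval of -0.86 to 1.10. It did not pass the test, with an adjusted p of 0.9998 by limma's moderated test and Benjamini-Hochberg adjustment, and an exact two-sided permutation test gave p = 0.743 over 35 arrangements, for which the smallest possible p is 0.0571. The interval includes the hippocampus value of -0.44. Without both libraries numbered 1 the hypothalamus difference was 0.302 with an adjusted p of 0.5879 by limma. It was -0.144 without control replicate 1 alone, 0.564 without fructose replicate 1 alone, 0.293 without control replicate 4, -0.158 without fructose replicate 2 and -0.052 without fructose replicate 3.

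**Figure D1:**
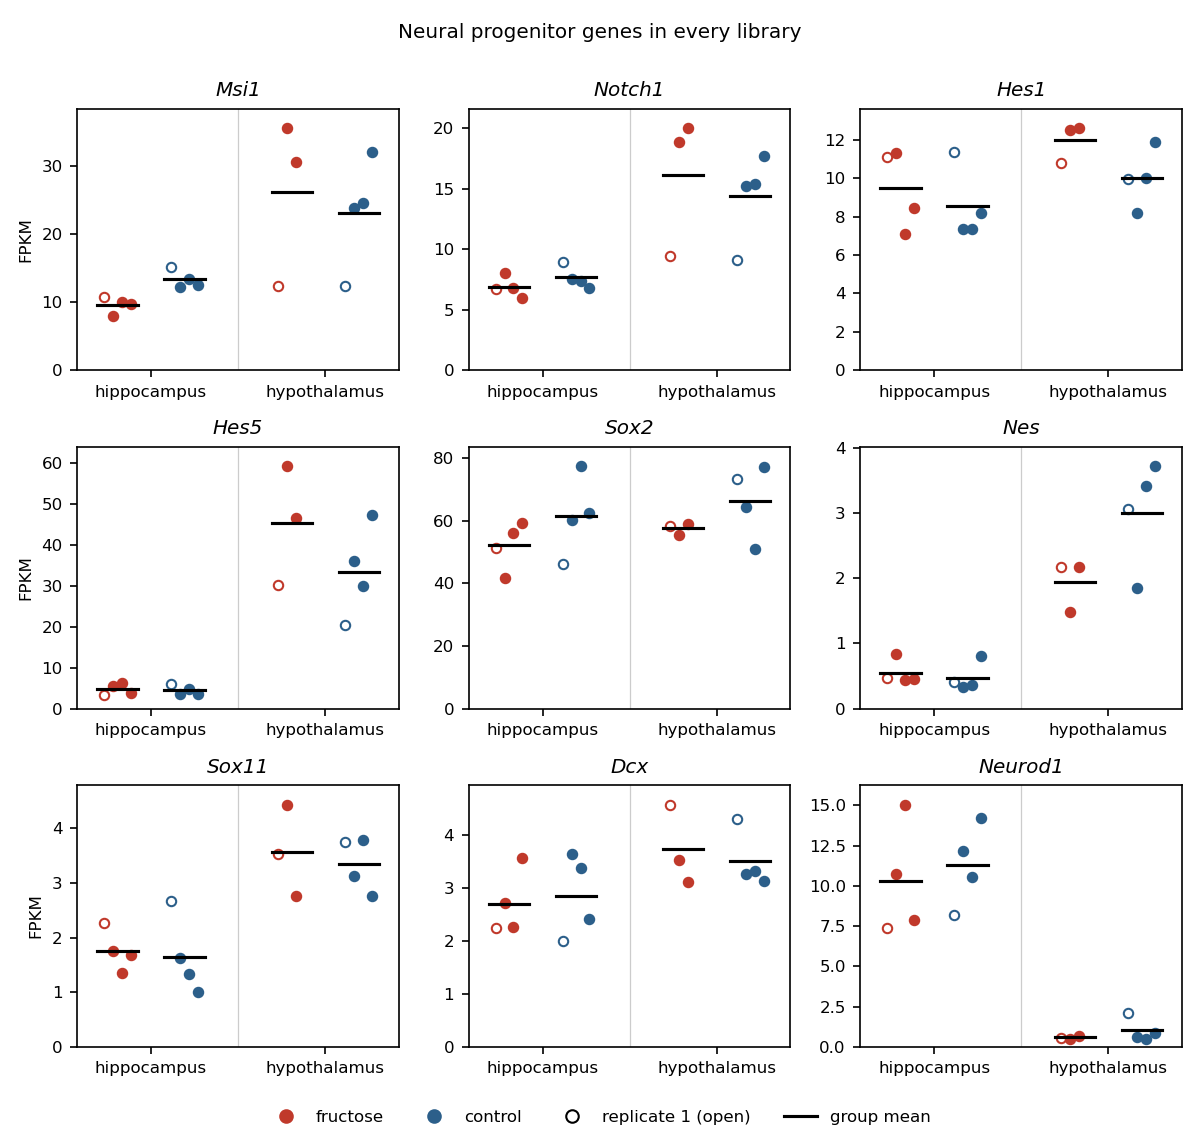
Expression of 9 genes in every library. The vertical axes give FPKM from 0, points are libraries (fructose in red to the left of control in blue within each region), open points are the libraries numbered 1 and black lines are group means. Msi1 in hippocampus is at 7.92 to 10.7 FPKM in fructose and 12.3 to 15.2 FPKM in control libraries, and the open points of Msi1, Notch1 and Hes5 in hypothalamus lie lowest in their groups.

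The receptor Notch1 overlapped between the groups in both regions. In hippocampus it held 6.69, 8.06, 6.78 and 5.96 FPKM in fructose and 8.95, 7.57, 7.39 and 6.79 FPKM in control libraries. In hypothalamus it held 9.47, 18.8 and 20.0 FPKM in fructose and 9.14, 15.2, 15.4 and 17.7 FPKM in control libraries. As for Msi1, the libraries numbered 1 were the lowest of each hypothalamus group and not of the hippocampus groups. The log2 difference was -0.14 ± 0.12 (SE) in hippocampus and 0.12 ± 0.30 in hypothalamus, where its 95% interval was -0.59 to 0.83 and limma gave an adjusted p of 0.9998. Without both libraries numbered 1 the hypothalamus difference was 0.258, with an adjusted p of 0.5494 by limma.

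Hes1 and Hes5 encode basic helix-loop-helix repressors and are the Notch target genes of the set. Their promoters are shown because RBPJ is known to bind letters of the type TGGGAA, and these were found in Hes1 and Hes5 and in no other gene of the set with an entry. The 250 bases before each gene start are printed on the gene's strand, from RefSeq on build GRCr8, which is not the build of the FPKM tables. Capitals mark TGGGAA, or TTCCCA where it lies on the opposite strand.
Hes1, chr11:84213046-84213295, minus strand: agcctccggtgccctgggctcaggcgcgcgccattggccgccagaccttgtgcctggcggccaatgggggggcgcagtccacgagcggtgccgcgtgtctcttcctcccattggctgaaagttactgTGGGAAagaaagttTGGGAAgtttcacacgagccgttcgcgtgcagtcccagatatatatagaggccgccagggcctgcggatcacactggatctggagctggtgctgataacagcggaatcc
Hes5, chr5:170804327-170804576, plus strand: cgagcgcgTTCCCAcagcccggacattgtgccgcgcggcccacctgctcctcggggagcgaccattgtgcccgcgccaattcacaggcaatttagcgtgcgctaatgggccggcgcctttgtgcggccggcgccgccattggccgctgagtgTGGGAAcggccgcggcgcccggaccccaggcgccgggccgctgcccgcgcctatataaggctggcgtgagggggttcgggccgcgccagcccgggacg

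Hes1 carries both matches on its own strand, at bases 128 to 133 and 142 to 147 counted from the first printed base. Hes5 carries a match on each strand, at bases 9 to 14 and 153 to 158. The set has 11 promoter entries of 300 bases for 9 of its genes, Msi2 among them, and each reaches 50 bases past the gene start. Of these 11 entries, 2 hold the letters on either strand, those of Hes1 and Hes5, against 25.7% of 33469 such promoters (8594). A match is a description of letters and not of a bound site, and Msi1 has no entry in this table.

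Hes5 in hypothalamus held 30.3, 59.3 and 46.6 FPKM in fructose libraries and 20.5, 36.0, 30.1 and 47.3 FPKM in control libraries. The 3 fructose values lie within or above the control range, and the groups overlap. The mean was 45.4 ± 14.5 FPKM in fructose (SD, n = 3) and 33.5 ± 11.2 FPKM in control libraries (SD, n = 4). The log2 difference of 0.44 ± 0.32 (SE), with a 95% interval of -0.30 to 1.18, did not pass the test, and limma gave an unadjusted p of 0.207 and an adjusted p of 0.9998. Leaving out both libraries numbered 1 gave a difference of 0.489. Leaving out a single one of them gave 0.695 for the fructose and 0.231 for the control library, and leaving out fructose library 2 gave 0.224. In hippocampus Hes5 held 3.36, 5.60, 6.36 and 3.94 FPKM in fructose and 6.05, 3.59, 4.86 and 3.55 FPKM in control libraries, and the groups overlap over most of their range. Its hippocampus difference was 0.07 ± 0.22 (SE) in log2(FPKM + 1), and 0.323 without both libraries numbered 1.

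Hes1 held 10.8, 12.5 and 12.6 FPKM in fructose and 9.94, 8.20, 9.98 and 11.9 FPKM in control libraries of the hypothalamus. The groups overlap through fructose library 1 and control library 4. The log2 difference was 0.24 ± 0.15 (SE), with a 95% interval of -0.10 to 0.58 and an adjusted p of 0.9998 by limma. In hippocampus it held 11.1, 11.3, 7.12 and 8.42 FPKM in fructose and 11.3, 7.36, 7.34 and 8.17 FPKM in control libraries, a difference of 0.13 ± 0.19 (SE). The groups overlap there over nearly their whole range.

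Msi1, Notch1 and Hes5 shared a low level in the hypothalamus libraries numbered 1. The mean of these libraries over that of the others was 0.423 for Msi1, 0.534 for Notch1 and 0.580 for Hes5, against a median of 1.01 over all 11498 tested loci, with quartiles of 0.789 and 1.30. A ratio lower than that of Msi1 was found for 4.28% of these loci, lower than that of Notch1 for 6.77% and lower than that of Hes5 for 8.74%. The other 5 genes tested there had ratios between 0.940 for Hes1 and 1.36 for Dcx. In hippocampus the ratio was 1.18 for Msi1, 1.10 for Notch1 and 1.01 for Hes5, against a median of 0.940 over 11385 loci, with quartiles of 0.811 and 1.12. Other genes of the set lay further out there, at 1.70 for Sox11, 1.35 for Hes1, 0.709 for Dcx and 0.664 for Neurod1. A lower ratio was found for 96.75% of these loci for Sox11 and for 8.80% for Neurod1.

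Set beside the library of the same number, fructose libraries of the hypothalamus were the higher for all 3 numbers of each of Msi1, Notch1, Hes1 and Hes5. The log2 differences by number were 0.542 to 0.702 for Hes5, 0.107 to 0.551 for Hes1, 0.045 to 0.359 for Notch1 and 0.013 to 0.559 for Msi1. Their means were 0.620 for Hes5, 0.322 for Hes1, 0.231 for Notch1 and 0.293 for Msi1. These leave out control library 4, which has no partner and was the highest control library for each of these genes. It held 47.3 FPKM for Hes5, 11.9 for Hes1, 17.7 for Notch1 and 32.0 for Msi1. Over all libraries the differences were smaller, at 0.44, 0.24, 0.12 and 0.12 in the same order. The share of all loci with 1 sign for every number was not counted. Nes was the lower in fructose for all 3 numbers, at -0.478 to -0.197 with a mean of -0.342. In hippocampus the differences of Msi1 were -0.571 to -0.337 for its 4 numbers, which the groups that do not overlap fix in sign. With the replicate number as a block, limma gave an adjusted p of 0.2351 for Hes5 and 0.8044 for Msi1 in hypothalamus, and no gene of the set passed there. What a replicate number stands for is not stated in the labels.

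**Figure D2:**
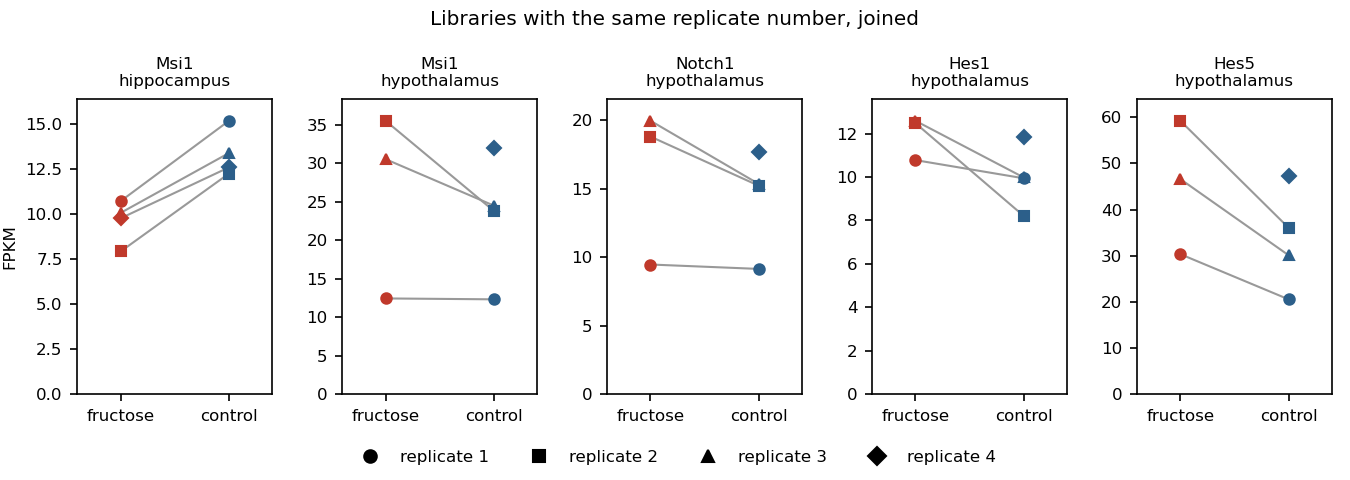
FPKM of Msi1 in both regions and of Notch1, Hes1 and Hes5 in hypothalamus, on axes from 0. Fructose libraries stand left and control libraries right, marker shapes give replicate numbers and grey lines join libraries of the same number; hypothalamus control replicate 4 has no partner. Lines of Msi1 run from lower fructose to higher control values in hippocampus, and the hypothalamus lines of Hes5 from 30.3 to 59.3 FPKM in fructose to 20.5 to 36.0 FPKM in control.

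Sox2, a transcription factor that keeps neural stem cells undifferentiated and is also made by astrocytes, was the most abundant gene of the set in both regions per length. In hippocampus it held 51.2, 41.9, 56.2 and 59.4 FPKM in fructose and 46.3, 60.2, 77.4 and 62.5 FPKM in control libraries. The groups overlap, with a log2 difference of -0.22 ± 0.18 (SE). In hypothalamus Sox2 is listed under 2 loci, and its values there are uncertain because reads could be split between them. The locus with the higher mean held 58.2, 55.5 and 59.0 FPKM in fructose and 73.4, 64.5, 51.0 and 77.1 FPKM in control libraries, and the groups overlap. The second locus held 34.2, 49.8 and 34.2 FPKM in fructose and 32.4, 27.3, 32.0 and 32.4 FPKM in control libraries, and here the groups do not overlap. The log2 differences ran in opposite directions, at -0.19 ± 0.16 (SE) for the first and 0.31 ± 0.16 for the second locus, each with an adjusted p of 0.9998 by limma. Summed over both loci the difference was -0.00206.

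Nes encodes nestin, an intermediate filament of neural progenitors and tanycytes that also occurs in vessel walls. In hypothalamus it held 2.18, 1.48 and 2.17 FPKM in fructose and 3.05, 1.84, 3.41 and 3.71 FPKM in control libraries. The groups overlap only through control library 2. The mean was 1.94 ± 0.401 FPKM in fructose (SD, n = 3) and 3.00 ± 0.821 FPKM in control libraries (SD, n = 4). The log2 difference of -0.43 ± 0.21 (SE), with a 95% interval of -0.91 to 0.05, had the lowest unadjusted p of the set by limma, 0.0747, and an adjusted p of 0.9998.

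Summed markers of other cell types are given beside Nes, and limma called 0 of them at an adjusted p of 0.05. Unadjusted p-values by limma were under 0.05 for 6 meningeal and 3 mural markers, against 361 of all 11498 loci tested. In hypothalamus the summed FPKM of 10 meningeal fibroblast markers was 92.6, 54.5 and 219.9 in fructose and 207, 183, 280 and 359 in control libraries, and 0 of the 9 tested had a positive difference, with a median of -1.26 in log2(FPKM + 1). The remaining marker, Col1a2, was under a mean of 1 FPKM. The sum of 7 mural cell markers was 262, 229 and 405 in fructose and 469, 336, 654 and 646 in control libraries. Yet 3 of the 7 differences were positive and 4 negative. Kcnj8 and Vtn did not overlap, in opposite directions, against 1.75% of 11498 loci higher and 1.58% lower without overlap. For both sums and for Nes, library 2 was the lowest of its group. In bulk tissue, fewer cells of a type and less RNA per cell cannot be told apart, and the part of these cells in the Nes values was not tested.

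In hippocampus Nes was under a mean of 1 FPKM and outside the test. It held 0.470, 0.830, 0.443 and 0.456 FPKM in fructose and 0.408, 0.327, 0.356 and 0.801 FPKM in control libraries, so that fructose library 2 and control library 4 stand above the rest. The same libraries were the highest of their groups for the mural sum, at 1166 in fructose library 2 against 359 to 771 in the other fructose libraries, and at 1682 in control library 4 against 152 to 348 in the other control libraries. Over the whole meningeal list, 9 of 9 tested differences were positive in hippocampus with a median of 1.07, opposite in sign to hypothalamus. Limma called 0 of them, and 1 had an unadjusted p under 0.05, against 92 of all 11385 loci tested. The same libraries were also the highest for the meningeal sum, at 454 in fructose library 2 and 258 in control library 4, and for Vim, the intermediate filament vimentin, with 239 FPKM in each. The part of these cells in the Nes values was not tested there either.

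Sox11, Dcx and Neurod1 mark the later steps from progenitor to neuron, and their groups overlapped in both regions. Sox11, a transcription factor of newly formed neurons, held 2.27, 1.76, 1.34 and 1.67 FPKM in fructose and 2.66, 1.62, 1.33 and 0.998 FPKM in control libraries of the hippocampus. In hypothalamus it held 3.53, 4.43 and 2.75 FPKM in fructose and 3.75, 3.12, 3.78 and 2.76 FPKM in control libraries. Its log2 difference was 0.09 ± 0.21 (SE) in hippocampus and 0.06 ± 0.17 in hypothalamus, with a 95% interval there of -0.34 to 0.46 and an adjusted p of 0.9998 by limma. The value thus lay well inside its own error in each region.

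Dcx encodes doublecortin, a microtubule protein of migrating neuroblasts. It held 2.25, 2.72, 2.26 and 3.57 FPKM in fructose and 2.00, 3.64, 3.38 and 2.42 FPKM in control libraries of the hippocampus. In hypothalamus it held 4.58, 3.53 and 3.13 FPKM in fructose and 4.31, 3.28, 3.33 and 3.14 FPKM in control libraries. The libraries numbered 1 were the highest of both hypothalamus groups, unlike for Msi1. The log2 difference was -0.05 ± 0.19 (SE) in hippocampus and 0.07 ± 0.16 in hypothalamus, with a 95% interval there of -0.31 to 0.44 and an adjusted p of 0.9998 by limma.

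Neurod1, a transcription factor of maturing dentate granule cells, held 7.40, 10.8, 15.0 and 7.88 FPKM in fructose and 8.22, 12.1, 10.5 and 14.2 FPKM in control libraries of the hippocampus, a log2 difference of -0.15 ± 0.24 (SE). The groups overlap over almost their whole range. In hypothalamus it held 0.543, 0.516 and 0.703 FPKM in fructose and 2.10, 0.618, 0.513 and 0.888 FPKM in control libraries, with control library 1 above the rest. Its mean of 0.84 FPKM there put it under the minimum for the test, next to Nes in hippocampus at 0.511 FPKM. The genes nearest above the minimum were Sox11 in hippocampus at 1.71 FPKM and Nes in hypothalamus at 2.55 FPKM.

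Over the set, 1 of the 8 genes of the set tested in hippocampus had groups that did not overlap, and this was Msi1, the gene chosen for it. Fructose lay below control without overlap for 0.413% of 11385 loci and above it for 0.255%, and limma called 0% of them, with 0 past an adjusted p of 0.05 and 92 with an unadjusted p under 0.05. The differences of the 8 genes ran from -0.44 to 0.13 with a median of -0.10, 3 of them positive, against 48.6% positive loci in the table. In hypothalamus 0 of 8 genes had groups that did not overlap at the locus with the higher mean, against 1.75% of 11498 loci higher and 1.58% lower. Limma called 0 of these 8 at an adjusted p of 0.05, and unadjusted p-values under 0.05 numbered 0 among them; it called 0.0087% of all loci, which is 1 locus. There 6 of 8 differences were positive, with a median of 0.10, against 51.5% positive loci.

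**Figure D3:**
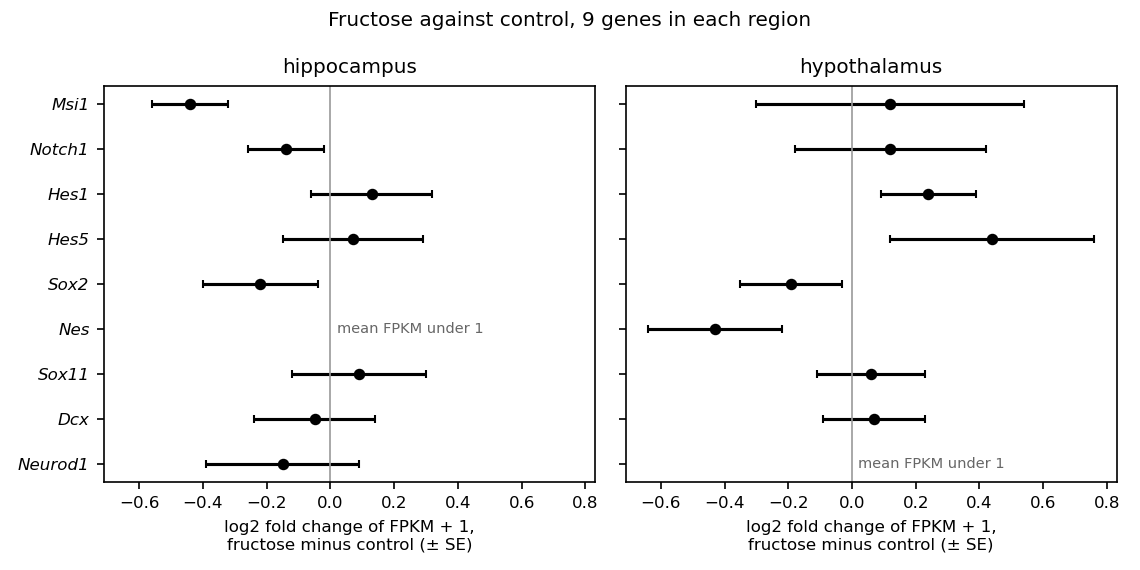
Difference of fructose minus control in log2(FPKM + 1) for 9 genes in hippocampus and hypothalamus, with the SE of the limma fit as horizontal bars and the grey line at 0. Msi1 is at -0.44 in hippocampus and 0.12 in hypothalamus, and Nes in hippocampus and Neurod1 in hypothalamus have no value because their mean is under 1 FPKM.

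Several of these genes stood at different levels in the regions. The tables were normalised separately, so the ratios are given with no test. FPKM summed over all loci was 435105 to 492778 per library in hypothalamus and 353703 to 402099 in hippocampus. The ratios are not scaled for this offset. Hes5 averaged 38.6 FPKM over the hypothalamus libraries and 4.66 FPKM over the hippocampus libraries, a ratio of 8.28. Nes averaged 2.55 FPKM in hypothalamus and 0.511 FPKM in hippocampus, a ratio of 4.98. Msi1 was 2.13 times, Notch1 2.08 times and Sox11 2.02 times as high in hypothalamus as in hippocampus, and Sox2, Hes1 and Dcx were 1.10, 1.20 and 1.30 times as high. The Sox2 ratio is uncertain, since it leaves out its second hypothalamus locus, which averaged 34.6 FPKM, while hippocampus has a single Sox2 locus. Neurod1 ran the other way, with 0.84 FPKM in hypothalamus and 10.8 FPKM in hippocampus. The libraries of the regions do not overlap for Hes5, Nes, Notch1, Sox11 and Neurod1, and they overlap for Msi1 because the hypothalamus libraries numbered 1, at 12.4 and 12.3 FPKM, lie within the hippocampus range of 7.92 to 15.2 FPKM.

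Within hippocampus the order of mean levels was Sox2 at 56.9 FPKM, Msi1 at 11.5, Neurod1 at 10.8, Hes1 at 9.02, Notch1 at 7.27, Hes5 at 4.66, Dcx at 2.78, Sox11 at 1.71 and Nes at 0.511 FPKM. Sox2 stood clear of all others, and every other neighbouring pair in this order had libraries that overlapped apart from Sox11 and Nes. Within hypothalamus the order was Sox2 at 62.7 FPKM, Hes5 at 38.6, Msi1 at 24.5, Notch1 at 15.1, Hes1 at 10.8, Dcx at 3.61, Sox11 at 3.45, Nes at 2.55 and Neurod1 at 0.84 FPKM. With Sox2 taken at its locus of the higher mean alone, Hes1 and Dcx were the only neighbours there whose libraries did not overlap. The overlap of Sox2 with Hes5 is therefore uncertain, because the second Sox2 locus is left out.

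Other genes of the Notch pathway and of neural progenitors were taken from 9 lists of 109 symbols. Of these genes, 80 were tested in hippocampus and 79 in hypothalamus, and limma called 0 in either region at an adjusted p of 0.05, while 2 in hippocampus and 1 in hypothalamus had an unadjusted p under 0.05, against 92 of 11385 and 361 of 11498 loci in the same tables. The median difference was -0.01 in hippocampus, where 37 were positive, and 0.05 in hypothalamus, where 44 were positive, against medians over all loci tested of -0.00379 in hippocampus and 0.00646 in hypothalamus. In hippocampus 1 of the 80 had groups that did not overlap, Pofut1, which attaches fucose to Notch receptors, against 0.255% of all loci higher and 0.413% lower. Its fructose libraries held 6.53, 8.07, 6.32 and 7.32 FPKM and its control libraries 6.03, 5.58, 5.43 and 5.80 FPKM. In hypothalamus 2 of the 79 (2.53%) did not overlap, among them Nr2e1, a share near that of all loci, with 1.75% higher and 1.58% lower. Pofut1 and Nr2e1 are named for their values.

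Nr2e1 encodes the nuclear receptor TLX of neural stem cells. It held 5.53, 7.64 and 6.52 FPKM in fructose and 5.11, 4.67, 4.17 and 5.39 FPKM in control libraries of the hypothalamus, so every fructose library lay above every control library. The log2 difference was 0.37 with an adjusted p of 0.9998 by limma.

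The 3 tested Notch ligands had a median difference of 0.11 in hippocampus and -0.07 in hypothalamus. Dll1 held 4.29 ± 0.698 FPKM in fructose and 4.55 ± 0.366 FPKM in control libraries of the hippocampus (SD, n = 4 each). Jag1 held 4.64 ± 1.25 FPKM in fructose and 3.63 ± 1.32 FPKM in control libraries there, and Dll4, a ligand of endothelial cells, held 1.33 ± 0.394 FPKM in fructose and 1.17 ± 0.401 FPKM in control libraries. In hypothalamus the log2 differences of these ligands were 0.00 for Dll1, which has 2 loci there and is uncertain, -0.07 for Jag1 and -0.17 for Dll4.

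The receptors Notch2, Notch3 and Notch4 had positive differences in hippocampus, at 0.22, 0.20 and 0.02, and negative ones in hypothalamus, at -0.03, -0.27 and -0.07. Notch3, the receptor of mural cells, shared the low hypothalamus libraries numbered 1, with a ratio of 0.478 to the others. It held 15.0 ± 6.59 FPKM in fructose (SD, n = 3) and 17.6 ± 5.62 FPKM in control libraries (SD, n = 4) of the hypothalamus. None of these differences exceeded its error.

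Among the factors that cut the receptor or act with its fragment in the nucleus, 7 of 9 differences were positive in hippocampus and 6 of 10 in hypothalamus. Psenen, a subunit of the protease that releases the Notch fragment, held 206.5 ± 11.2 FPKM in fructose (SD, n = 3) and 274.5 ± 71.2 FPKM in control libraries (SD, n = 4) of the hypothalamus, a log2 difference of -0.38 ± 0.20 (SE). Its partners Aph1a and Ncstn had differences of 0.13 and -0.15 there, and -0.07 and 0.05 in hippocampus. These subunits of 1 protease thus differed in sign, none past the test.

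The modulators of Notch included the Musashi target Numb and its relative Numbl. Numb, at its locus with the highest mean, had log2 differences of 0.20 in hippocampus and 0.10 in hypothalamus. Its groups overlapped in both regions. Numbl held 29.3 ± 7.63 FPKM in fructose and 30.1 ± 7.29 FPKM in control libraries of the hippocampus (SD, n = 4 each), a log2 difference of -0.04 ± 0.25 (SE). In hypothalamus the difference was -0.06 ± 0.38, and Numbl also shared the low libraries numbered 1, with a ratio of 0.456. The ubiquitin ligase Dtx3 went furthest in this respect. In hypothalamus it held 8.24, 34.6 and 51.1 FPKM in fructose and 3.89, 50.7, 39.0 and 62.6 FPKM in control libraries. Its log2 difference there was -0.14 ± 0.98 (SE) with the libraries numbered 1 included. Rfng, a sugar transferase that acts on Notch, had a log2 difference of -0.22 in hippocampus and -0.02 in hypothalamus.

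The other Notch target genes, Hey1, Hes6 and Nrarp among them, had a median difference of -0.10 in hippocampus and 0.15 in hypothalamus. Hey1, a repressor related to the Hes proteins, held 57.8 ± 6.52 FPKM in fructose (SD, n = 3) and 51.8 ± 10.6 FPKM in control libraries (SD, n = 4) of the hypothalamus, a log2 difference of 0.17 ± 0.19 (SE). Nrarp, a feedback inhibitor of Notch, had a difference of -0.25 ± 0.17 in hippocampus and 0.21 ± 0.20 in hypothalamus, where it has 2 loci and is uncertain. Hes6 had differences of -0.08 in hippocampus and -0.01 in hypothalamus.

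Genes of radial glia and stem cells other than Sox2 and Nes had 6 of 13 positive differences in hippocampus and 5 of 13 in hypothalamus. Gfap, the intermediate filament of astrocytes and adult neural stem cells, held 277.7 ± 103.8 FPKM in fructose and 276.8 ± 53.6 FPKM in control libraries of the hippocampus (SD, n = 4 each), and its log2 difference in hypothalamus was 0.23 ± 0.32 (SE). The glutamate transporter Slc1a3 had differences of -0.12 ± 0.19 in hippocampus, where it has 2 loci and is uncertain, and 0.37 ± 0.18 in hypothalamus. Vim had differences of 1.01 ± 0.68 in hippocampus and -0.50 ± 0.26 in hypothalamus, in the direction of the meningeal sum in each region.

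Of the 16 listed genes of cell division, 7 were under a mean of 1 FPKM in hippocampus and 8 in hypothalamus, among them Mki67 and Top2a, which mark cells in division. Mki67 held 0.380, 0.726, 0.542 and 0.476 FPKM in fructose and 0.553, 0.426, 0.546 and 0.496 FPKM in control libraries of the hippocampus, with full overlap. Pcna, a clamp of DNA replication that is also used in repair, had differences of -0.07 in hippocampus and 0.02 in hypothalamus, and the cyclins Ccnd2 and Ccnd1 lay between -0.04 and 0.09. The difference furthest from 0 in this list was that of Aurkb, a kinase of mitosis named for its values, at -0.84 in hippocampus and -0.87 in hypothalamus, where limma gave an adjusted p of 0.9998 and the groups overlap in both regions.

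Genes of neuroblasts and immature neurons had 6 of 15 positive differences in hippocampus, with a median of -0.04, and 10 of 14 in hypothalamus, with a median of 0.08. Stmn1 and Stmn2, microtubule regulators of growing neurons, had differences of 0.20 ± 0.12 (SE) and 0.06 ± 0.18 in hippocampus, where Stmn2 has 2 loci and is uncertain. The neuronal tubulin Tubb3 had -0.05 ± 0.30 in hippocampus and 0.08 ± 0.20 in hypothalamus. Neurod4, a transcription factor of early neurons named for its value, was furthest from 0 in hippocampus at -1.06 and was under a mean of 1 FPKM in hypothalamus. No gene of this list had groups that did not overlap in either region.

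Other RNA-binding proteins of neural cells, the family in function to which Msi1 belongs, had 4 of 15 positive differences in hippocampus and 12 of 15 in hypothalamus, with a median of -0.02 in hippocampus and 0.10 in hypothalamus. The splicing factors Rbfox1 and Rbfox3 had differences of -0.04 and -0.17 in hippocampus and 0.22 and -0.05 in hypothalamus. Pabpc1, the poly(A)-binding protein, had -0.11 ± 0.10 (SE) in hippocampus and -0.30 ± 0.23 in hypothalamus. None of the 15 had groups that did not overlap in either region.

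**Figure D4:**
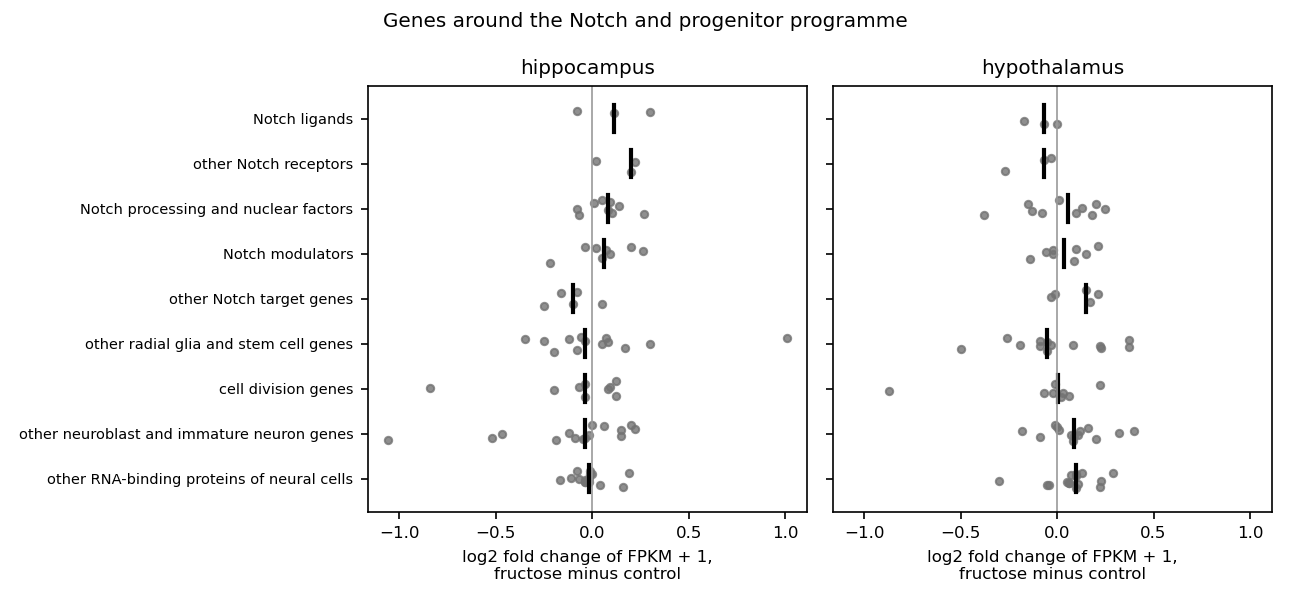
Difference of fructose minus control in log2(FPKM + 1) for the tested genes of 9 lists in hippocampus and hypothalamus. Grey points are genes, spread vertically only to be seen apart, and black bars are list medians, which lie between -0.10 and 0.20 in hippocampus and between -0.07 and 0.15 in hypothalamus; in hippocampus the rightmost point is Vim at 1.01 and the leftmost Neurod4 at -1.06.

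Markers of astrocytes, ependymal cells and tanycytes are given beside the hypothalamus values of Msi1 and Hes5. Limma called 0 of them at an adjusted p of 0.05. Unadjusted p-values by limma were under 0.05 for 1 astrocyte, 4 ependymal and 0 tanycyte markers, against 361 of all 11498 loci tested. The summed FPKM of 10 astrocyte markers was 3112, 4548 and 3941 in fructose and 3236, 3524, 3061 and 3590 in control libraries. Of the 10 differences 8 were positive, with a median of 0.20. The only marker of the 10 whose groups did not overlap, Gjb6, was lower in fructose, as were 1.58% of all loci without overlap. The sum of 7 ciliated ependymal markers was 111, 138 and 114 in fructose and 68.2, 84.9, 93.1 and 107 in control libraries, so the sums do not overlap. Singly, 6 of the 7 differences were positive and 1 was negative, and 4 (Ccdc153, Tmem212, Ak7 and Tekt1) lay higher in fructose without overlap, as did 1.75% of all 11498 loci. The sum of 6 tanycyte markers was 94.1, 120 and 70.8 in fructose and 87.7, 33.6, 84.0 and 58.2 in control libraries, with 5 of 5 tested differences positive. Fructose library 2, the highest for Msi1 and Hes5, was also the highest for all of these sums.

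In hippocampus the same sums overlapped between the groups. Astrocyte markers added up to 2593 to 3807 FPKM in fructose and 2964 to 3640 FPKM in control libraries, with a median difference of -0.06 and 2 of 10 positive. Fructose library 2, the lowest for Msi1, was also the lowest for the astrocyte sum. Other libraries ran the other way. Fructose library 3 had the highest astrocyte sum, 3807, with Msi1 at 10.1 FPKM, below every control library. Control library 1 had the lowest control sum, 2964, with the highest Msi1 value, 15.2 FPKM. Tanycyte markers added up to 239 to 275 FPKM in fructose and 209 to 305 FPKM in control libraries, above every hypothalamus sum. Yet Rax, Col23a1, Gpr50 and Scn7a were under a mean of 1 FPKM in hippocampus, so this sum does not measure tanycytes alone. The part of astrocytes, ependymal cells and tanycytes in the Msi1 and Hes5 values was not tested.

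The 5 genes whose pattern over the 15 libraries was most like that of Msi1 were Cuedc1, Kdm6b, Bsdc1, Ppp2r4 and Hsd17b14. Likeness was the mean absolute difference from Msi1 after scaling each gene to mean 0 and SD 1 within each table, among 8238 genes with a single locus and a mean of at least 1 FPKM in each. It was 0.256 SD for Cuedc1, 0.316 for Kdm6b, a histone demethylase, 0.326 for Bsdc1, 0.377 for Ppp2r4 and 0.390 for Hsd17b14, against a median of 1.112 over all genes. These genes were picked for this pattern, so their values carry no test.

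Cuedc1 held 21.6, 18.0, 18.8 and 20.4 FPKM in fructose and 25.2, 21.6, 21.9 and 21.6 FPKM in control libraries of the hippocampus. In hypothalamus it held 14.4, 22.0 and 22.5 FPKM in fructose and 13.5, 19.3, 18.4 and 21.8 FPKM in control libraries, with the low values in the libraries numbered 1 as for Msi1. Without those libraries 1 of the 5 genes stayed among the 5 most like, and it was Cuedc1, at rank 2, while Ppp2r4 went to rank 530. With all 15 libraries, Notch1 of the set itself was at rank 15 with 0.439 SD and Hes5 at rank 1160 with 0.762 SD. Hes1 followed at 2937, Sox11 at 4430 and Dcx at 7208. Their ranks without the libraries numbered 1 are not given.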

How the data were processed

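RNA of rat hippocampus and hypothalamus was measured in 16 labelled samples, and 15 of them have a column in the deposited tables; hypothalamus fructose replicate 4 has none, so 3 fructose libraries were compared with 4 control libraries there, where 4 and 4 had been assumed. The authors deposited FPKM values per locus with a gene symbol. The submitters' processing notes list Cufflinks, Cuffdiff, TopHat, TopHat2, Bowtie, Bowtie2 and build rn5, with no versions, roles or order. FPKM hold no counts, so depth and counting error are unknown, a count model could not be fitted, and differences in log2(FPKM + 1) understate those of low genes. The tables were normalised separately and were tested separately.

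Groups follow tissue and treatment in the labels. Loci with a mean of at least 1 FPKM in a table (11385 in hippocampus, 11498 in hypothalamus) were tested on log2(FPKM + 1), a pseudocount of 1, with limma 3.58.1 in R 4.3.3, using a moderated test with trend and no covariate beside group, with p-values adjusted over all loci by Benjamini-Hochberg at 0.05. The script was tested on simulated data. Each symbol was taken at its locus with the highest mean. A listed gene is not reported here. The members and lists were chosen with earlier results of these data known. The text names all members and the 3 genes of each list with the highest hippocampus mean. It also names any listed gene past the test in hypothalamus and the 5 genes most like Msi1. Numb is named as the Musashi target. Others are named for their values (Pofut1, Nr2e1, Aurkb, Neurod4, Mki67, Top2a and single cell type markers). Permutation, likeness and figures used Python 3.11.15, scipy 1.17.1, pandas 2.3.3 and matplotlib 3.10.9.

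Replicate numbers come from the labels. Deviations from group means of same-numbered fructose and control libraries correlated at 0.892, 0.208, 0.481 and 0.41 in hippocampus and 0.848, 0.488 and 0.456 in hypothalamus, all over 0.1, and a blocked fit by number was therefore run as an alternative to the reported tests, which are unpaired. With the replicate 1 libraries left out, hippocampus gave -0.226, 0.404 and 0.0882 and hypothalamus gave 0.269 and 0.0364, so pairing beyond replicate 1 is not shown. Alternatives were a pseudocount of 0.1, no filter, a minimum of 5 FPKM, median scaling, the replicate block, leaving out each library, leaving out both replicate 1 libraries, and summing loci.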

Additional observations from a re-analysis of the deposited data

Results flagged for a closer look

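In hippocampus, Nes reached 0.830 FPKM in 1 of the 4 fructose libraries (replicate 2), where the others held 0.443 to 0.470 FPKM, and 0.801 FPKM in 1 of the 4 control libraries (replicate 4), where the others held 0.327 to 0.408 FPKM. In hypothalamus control libraries, Dcx reached 4.31 FPKM in replicate 1, where the others held 3.14 to 3.33 FPKM. These 3 of 27 groups have a single library far from the rest by Dixon's test, which chance gives for about 1 in 20 groups.

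By replicate number, Msi1 was lower in fructose libraries for all 4 numbers in hippocampus and higher for all 3 in hypothalamus. The mean log2 difference of hypothalamus minus that of hippocampus was 0.731, and this difference was not tested. Its hypothalamus share of 0.293 leaves out control replicate 4, the highest Msi1 control library there. Over all hypothalamus libraries the difference was 0.12 ± 0.42 (SE), so the gap between the regions is then smaller. The hippocampus share is the pattern for which Msi1 was chosen.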

How the results depend on the processing

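Msi1 in hippocampus kept a negative difference in every setting, -0.488 to -0.357 in the fits without 1 library. Its groups do not overlap, which is why it was chosen, so leaving out libraries or changing the pseudocount could not reverse the sign. In hypothalamus the difference of Msi1 lay between -0.158 and 0.564 in the fits without 1 library and was 0.293 with the replicate block. No setting brought it or any other member past the threshold there (adjusted p by limma 0.5879 to 0.9999 for Msi1 and 0.2351 to 0.9999 for Hes5 over all settings). The Msi1 value was negative without control replicate 1 (-0.144), fructose replicate 2 (-0.158) or fructose replicate 3 (-0.052), and the cause was not tested. Without 1 library, hypothalamus differences ranged from -0.0566 to 0.161 for Dcx, from -0.0715 to 0.195 for Sox11 and from -0.0625 to 0.445 for Notch1, and Sox11 was at -0.00629 with the replicate block. In all, 10 of 109 hypothalamus values and 9 of 117 hippocampus values of the members changed sign.

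The count of loci called by limma in hypothalamus, 1, was 0 at a minimum of 5 FPKM, 2 with the replicate block, 2 without both replicate 1 libraries and 0 to 2 without 1 library; it was 2 without control replicate 1, 3 or 4 and 0 without fructose replicate 2 or 3. In hippocampus it was 0, and 0 to 1 without 1 library, with 1 without control replicate 3. The replicate block changed no member's call. Of the 5 genes most like Msi1, 1 was shared with the 5 found without the replicate 1 libraries. With unknown depth, values near or under 1 FPKM (Nes in hippocampus, Neurod1 in hypothalamus, Mki67 and Top2a) may rest on few fragments.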
